A study of Mus musculus with 8 samples.

Results

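Astrocyte genes were followed in tumor cells sorted from breast cancer brain metastases (BCBM). The group holds 10 genes of the deposited count table, picked by symbol as genes that astrocytes express strongly: Gfap, Aqp4, Aldoc, Slc1a2, Slc1a3, Atp1b2, Bcan, Ntrk2, Ntsr2 and Aldh1l1. All 10 were found among the 31894 genes with an identifier, and all 10 passed the filter on low counts that left 13598 genes to test. The tumor cells came from the PyMT mouse model of mammary cancer with an E-cad-mCFP reporter, in which E-cadherin carries a cyan fluorescent protein, and had been enriched for growth in the brain by serial intracranial transplantation. They were kept as 1 organoid line, whose nuclei carry the green marker H2B-Dendra2, and were grown in the brains of adult FVB mice labelled wild type. From the BCBM of 4 mice, numbered 57, 58, 67 and 70, live tumor cells were sorted by flow cytometry into E-cadHI cells, which gave cyan signal, and E-cadLO cells, which did not. Each mouse gave 1 bulk mRNA library of each population, so that there were 8 libraries, 4 per group, with total counts of 9102781 to 15769200. The study made its purity check on E-cadHI cells, since E-cadLO cells were too few for it.

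Astrocytes are glial cells that clear glutamate from synapses, buffer potassium and water around neurons, and reach blood vessels with processes called endfeet. The 10 genes cover these roles. Gfap encodes the filament protein of the astrocyte cytoskeleton, and Aqp4 the water channel of the endfeet. Slc1a2 (GLT-1) and Slc1a3 (GLAST) are the glutamate transporters of astrocytes, and Atp1b2 is the beta subunit of their sodium pump. Aldoc is the brain form of the glycolytic enzyme aldolase, and Aldh1l1 an enzyme of folate metabolism used as a pan-astrocyte marker. Bcan encodes brevican, a proteoglycan of the brain matrix. Ntrk2 is the receptor of brain-derived neurotrophic factor, of which astrocytes make mainly a form without the kinase domain, and Ntsr2 a neurotensin receptor. Some of them are not confined to astrocytes, since neurons use Ntrk2 and oligodendrocyte precursors express Bcan. The comparison of E-cadLO with E-cadHI cells was made by the study to describe their epithelial and mesenchymal states, and the astrocyte genes were read here within it.

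Promoter sequences are shown for 4 of the genes because the levels below set Aldoc apart from genes such as Gfap, Slc1a3 and Ntsr2. Each window holds the 250 bases before a RefSeq start site, 5' to 3' on the strand of the gene, in the GRCm38.p6 build. RefSeq windows were found for 8 of the 10 genes, and Aldoc has windows at 2 start sites. The Gfap and Aldoc windows lie wholly or partly inside the gene spans given below, which include transcripts with other starts. Capitals mark matches on either strand to 4 motifs: GCCAA (NFI), TTCNNNGAA (STAT), ACGTG (core of the hypoxia response element) and ATTGT (SOX). NFI, STAT and SOX factors are known regulators of astrocyte genes.

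The Gfap window (chr11:102897201-102897450, minus strand) and the Slc1a3 window (chr15:8710808-8711057, minus strand) stand for the filament and the glutamate transporter.
Gfap: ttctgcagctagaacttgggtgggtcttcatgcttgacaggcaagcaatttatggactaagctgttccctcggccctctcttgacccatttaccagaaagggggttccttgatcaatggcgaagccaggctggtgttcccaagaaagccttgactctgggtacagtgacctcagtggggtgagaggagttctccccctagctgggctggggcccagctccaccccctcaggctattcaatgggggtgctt
Slc1a3: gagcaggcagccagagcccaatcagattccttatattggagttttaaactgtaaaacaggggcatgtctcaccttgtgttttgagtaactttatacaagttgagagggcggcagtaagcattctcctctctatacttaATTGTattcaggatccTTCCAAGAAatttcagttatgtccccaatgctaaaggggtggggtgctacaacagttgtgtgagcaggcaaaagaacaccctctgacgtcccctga

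The Ntsr2 window (chr12:16653220-16653469, plus strand) and the Aldoc windows (chr11:78322823-78323072 and chr11:78323948-78324197, plus strand) follow.
Ntsr2: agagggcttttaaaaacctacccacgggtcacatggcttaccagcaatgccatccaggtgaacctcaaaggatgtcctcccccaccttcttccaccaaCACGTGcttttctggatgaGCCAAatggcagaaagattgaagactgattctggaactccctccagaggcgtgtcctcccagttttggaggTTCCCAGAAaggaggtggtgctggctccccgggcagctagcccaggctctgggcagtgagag
Aldoc window 1: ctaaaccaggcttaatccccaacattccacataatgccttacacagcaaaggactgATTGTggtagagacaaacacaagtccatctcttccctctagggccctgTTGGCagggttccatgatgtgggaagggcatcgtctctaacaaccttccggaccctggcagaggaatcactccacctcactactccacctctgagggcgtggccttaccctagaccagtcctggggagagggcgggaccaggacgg
Aldoc window 2: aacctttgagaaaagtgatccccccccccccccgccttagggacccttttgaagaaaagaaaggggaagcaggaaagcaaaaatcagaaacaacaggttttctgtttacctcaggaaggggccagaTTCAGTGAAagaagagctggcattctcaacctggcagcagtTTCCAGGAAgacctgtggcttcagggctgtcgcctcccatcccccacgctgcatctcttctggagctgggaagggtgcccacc

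Among the windows printed, a STAT match was found in Slc1a3 (TTCCAAGAA), in Ntsr2 (TTCCCAGAA) and at 2 places in the second window of Aldoc (TTCAGTGAA and TTCCAGGAA), and 7.02% of all 32851 windows hold at least 1. The NFI motif was found in Ntsr2 and in the first window of Aldoc, and 41.5% of all windows hold it. Ntsr2 also holds CACGTG, a palindrome that matches the hypoxia core on both strands, and 16.6% of all windows hold that core. SOX matches stand in Slc1a3 and in the first window of Aldoc, with a share of 27.7% of all windows. In the printed Gfap window none of the 4 motifs was found. The windows of Slc1a2, Bcan, Ntrk2 and Aldh1l1 are not printed. None of them held a STAT match or the hypoxia core, Slc1a2 held the NFI motif, and Ntrk2 held SOX matches. Thus no motif separated the Aldoc windows from those of the other genes, and a match describes the letters only.

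Levels of the 10 genes are given as normalised CPM, the counts of a gene relative to the total count of its library after TMM scaling. In each list of 4 values below, the mice stand in the order 57, 58, 67 and 70. Gfap (ENSMUSG00000020932, chromosome 11, 102887336 to 102900912, minus strand, GRCm38) was at 2.09, 88.7, 28.2 and 339 CPM in E-cadHI cells. In E-cadLO cells of the same mice it was at 8.99, 187, 210 and 1333 CPM. It was higher in E-cadLO cells in each of the 4 mice, while the groups overlapped, because the E-cadHI library of mouse 70 was above the E-cadLO libraries of the other mice.

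The same order of mice was seen for Aqp4, on chromosome 18, at much lower levels. It was at 0.627, 15.4, 3.94 and 61.0 CPM in E-cadHI cells and at 0.371, 23.5, 26.5 and 272 CPM in E-cadLO cells. Mouse 57 went against the others here, but its values rest on 9 and 5 counts, so that no difference was detectable at this depth.

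The transporters followed Gfap. Slc1a2 (chromosome 2, 102658659 to 102790784, plus strand) was at 4.88, 109, 28.0 and 328 CPM in E-cadHI cells and at 23.9, 184, 135 and 935 CPM in E-cadLO cells. Slc1a3 (chromosome 15, 8634124 to 8710764, minus strand) was at 3.69, 65.2, 14.0 and 152 CPM and at 23.9, 121, 58.8 and 735 CPM, respectively. Both were higher in E-cadLO cells of every mouse. Atp1b2 (chromosome 11, 69599736 to 69605942, minus strand) had the largest mean ratio within mice, with 0.627, 19.2, 5.43 and 78.9 CPM in E-cadHI cells to 5.50, 51.8, 36.1 and 524 CPM in E-cadLO cells.

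Of the receptors, Ntrk2 (chromosome 13, 58806596 to 59133970, plus strand) was at 1.12, 26.5, 6.76 and 135 CPM in E-cadHI cells and at 9.96, 59.6, 26.1 and 460 CPM in E-cadLO cells. Ntsr2 (chromosome 12, 16653470 to 16660236, plus strand) was at 1.95, 20.1, 7.36 and 227 CPM and at 8.32, 54.1, 51.0 and 796 CPM, respectively. In both, every mouse was higher in E-cadLO cells, and mouse 70 stood above the other mice in either population. For Bcan (chromosome 3, 87987531 to 88000230, minus strand) the values were 0.279, 7.30, 1.34 and 17.9 CPM in E-cadHI cells and 0.669, 29.8, 6.26 and 55.2 CPM in E-cadLO cells. Its difference in mouse 57 rests on 4 and 9 counts and lay within counting error.

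Both enzymes were less uniform over the mice. Aldh1l1 (chromosome 6, 90486427 to 90600203, plus strand) was at 1.60, 5.07, 2.30 and 20.2 CPM in E-cadHI cells and at 1.93, 27.7, 2.02 and 73.5 CPM in E-cadLO cells. Only the pairs of mice 58 and 70 were apart by more than counting error. Aldoc (chromosome 11, 78322968 to 78327781, plus strand) was abundant throughout, at 1005, 689, 1026 and 2233 CPM in E-cadHI cells. In E-cadLO cells it was at 124, 700, 1132 and 4903 CPM, lower in mouse 57, nearly level in mice 58 and 67 and higher in mouse 70.

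**Figure D1:**
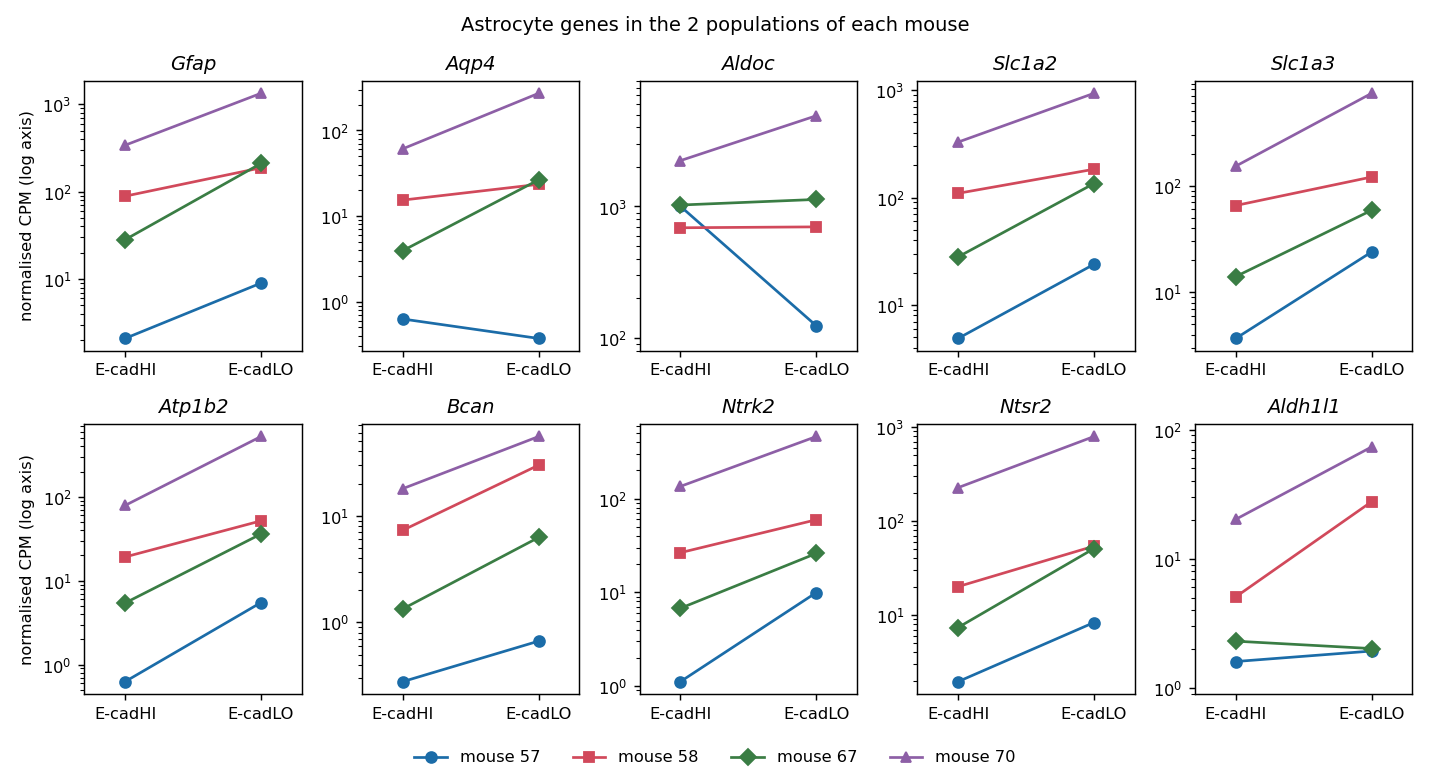
Normalised CPM (log axis, own range per gene) of the 10 astrocyte genes in E-cadHI and E-cadLO cells, with 1 point per library and a line joining the populations of a mouse. Lines go up in all 4 mice for 7 genes, mouse 70 is highest throughout, and Aldoc of mouse 57 is at 1005 and 124 CPM.

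Differences between mice were wider than those between populations. Mouse 70 gave the highest value of all 10 genes in both populations, and mouse 57 the lowest value of 9 genes in E-cadHI cells and of 10 in E-cadLO cells. Between the highest and the lowest mouse, Gfap differed 162-fold in E-cadHI and 148-fold in E-cadLO cells, whereas Aldoc differed 3.24-fold and 39.6-fold. E-cadHI cells of mouse 70 had more of all 10 genes than E-cadLO cells of mouse 57, more of all 10 than those of mouse 67, and more of 8 of the 10 than those of mouse 58. Of the variation in log2 CPM over the 8 libraries, the mouse took a median of 83.8% for the 10 genes, the population 13.5% and the remainder 1.79%. For all genes tested the medians were 48.4%, 16.6% and 26.0%. Aldoc had a remainder of 29.8% and a population share of 2.27%. Since these are bulk libraries, fewer cells of a type and less RNA per cell cannot be told apart.

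Levels of different genes were compared per kb of exon. Aldoc had the highest level, with a median of 311 CPM per kb over the 8 libraries (range 37.9 to 1502), and was above Gfap in 8 of 8. Gfap followed with a median of 32.7 CPM per kb, above Ntsr2 (11.4) in 6 of 8 libraries, and Ntsr2 was above Atp1b2 (6.77) in 8 of 8. Atp1b2, Slc1a3 (7.26) and Slc1a2 (9.31) did not keep one order, since Atp1b2 was above Slc1a3 in 3 of 8 libraries and Slc1a3 above Slc1a2 in 4 of 8. Slc1a2 was above Aqp4 (3.12) in 8 of 8 libraries and Aqp4 above Ntrk2 (1.36) in 7. At the low end, Ntrk2 was above Aldh1l1 (0.817) and Aldh1l1 above Bcan (1.67) in 5 of 8 each, so that these neighbours were not separated.

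The shares of the 9 genes without Aldoc in their sum per kb differed between libraries to unequal degrees. Gfap took a median of 34.8% (range over libraries 17.9% to 49.9%), Ntsr2 19.4% and Slc1a2 12.4%. The share of Slc1a2 differed 2.05-fold between its highest and lowest library, that of Atp1b2 2.33-fold and that of Gfap 2.80-fold. Those of Ntrk2, Slc1a3 and Bcan differed 3.19-fold, 3.40-fold and 4.33-fold. Aqp4 and Aldh1l1 varied more, with shares from 0.499% to 4.58% and from 0.448% to 13.3%. Summed, the 9 genes had 16.9, 357, 97.4 and 1360 CPM in E-cadHI cells and 83.6, 738, 552 and 5184 CPM in E-cadLO cells. At most, then, they made up 0.470% of the counts of a library, in E-cadLO cells of mouse 70.

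Within each mouse, E-cadLO was then compared with E-cadHI as a log2 ratio of CPM plus 0.5, a scale that understates the change of genes with few counts. Medians over the 10 genes were 1.86 (mouse 57), 1.11 (mouse 58), 2.14 (mouse 67) and 1.82 (mouse 70), while the medians over all genes tested lay between 0.00 and 0.07. Of the 40 ratios, 37 were above 0. The 95% interval for counting error lay above a ratio of 1 for 34 of them, below it for 1 and across it for the others. The 1 below was Aldoc of mouse 57, with a ratio of 0.123 (log2 ratio -3.02). The other 2 negative log2 ratios, Aqp4 of mouse 57 (-0.37) and Aldh1l1 of mouse 67 (-0.15), did not pass counting error.

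Higher in E-cadLO cells of 4 of 4 mice were 7 of the 10 genes, namely Gfap, Slc1a2, Slc1a3, Atp1b2, Bcan, Ntrk2 and Ntsr2, against 16.8% of all genes tested. At least 2-fold higher in 4 of 4 mice were 4 of the 10, against 2.04% of all genes. No gene of the 10 had groups that did not overlap, against 3.9% of all genes with every E-cadLO library above every E-cadHI library. The mean fold change within mice was 4.90 for Atp1b2 (log2 2.29 ± 0.60, SD, n = 4), 3.86 for Gfap (1.95 ± 0.74) and 3.85 for Ntsr2 (1.94 ± 0.55). For Slc1a3 it was 3.81 (log2 1.93 ± 0.73), for Ntrk2 3.66 (1.87 ± 0.63), for Slc1a2 3.18 (1.67 ± 0.70) and for Bcan 2.84 (1.50 ± 0.63). Aqp4 had a mean of 2.37-fold and Aldh1l1 of 2.08-fold, with SDs of 1.38 and 1.22 on the log2 scale that were larger than their means of 1.24 and 1.06. Aldoc, with a mean log2 ratio of -0.43 ± 1.80, had no common direction.

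**Figure D2:**
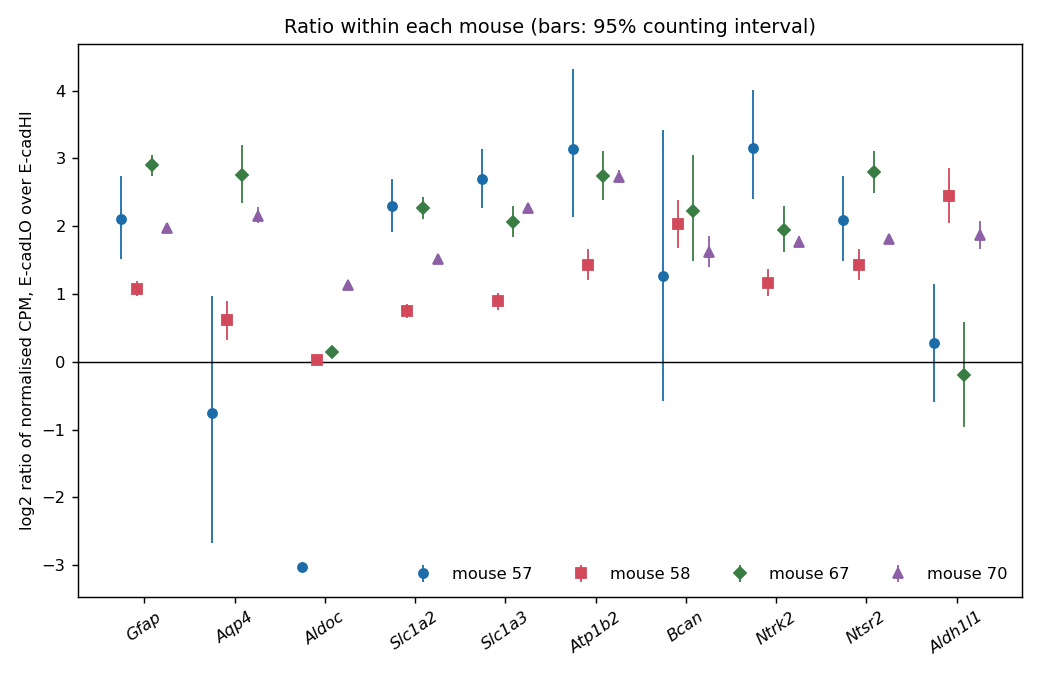
Log2 ratio of normalised CPM, E-cadLO over E-cadHI, for each gene and mouse, computed without a pseudocount, with bars for the 95% interval of counting error. Points lie above 0 for 37 of 40 pairs, and those of Aldoc run from -3.02 in mouse 57 to above 1 in mouse 70.

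Whether the populations differed was tested for all 13598 genes with edgeR's quasi-likelihood test. Without the mouse in the model, 0 of the 10 astrocyte genes were called, and 0% of all genes were. At an unadjusted p under 0.05 it was again 0 of the 10, against 8.16% of all genes that were higher at that level. The log2 fold changes were 0.47 for Aldoc and from 1.44 (Slc1a2) to 2.57 (Atp1b2) for the other 9, with a median of 1.84 against 0.06 over all genes. Standard errors had a median of 1.35 for the 10 genes and of 0.31 over all genes. Adjusted p-values (edgeR, Benjamini-Hochberg) ran from 0.436 for Atp1b2 to 0.803 for Aldoc. DESeq2 without the mouse also called 0 of 9 genes, Ntsr2 having no adjusted p, against 2.64% of all genes called higher.

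Once the mouse entered as a replicate block, edgeR called 6 of the 10 astrocyte genes higher in E-cadLO cells, against 0.728% of all genes. Called were Atp1b2 (log2 fold change 2.42, SE 0.29, adjusted p = 0.0239), Ntsr2 (2.01, SE 0.24, adjusted p = 0.0239), Gfap (2.0, SE 0.30, adjusted p = 0.0360), Slc1a3 (1.96, adjusted p = 0.0363), Ntrk2 (1.90, adjusted p = 0.0383) and Bcan (1.85, adjusted p = 0.0392). Slc1a2 had a change of 1.69 and did not pass (adjusted p = 0.0513), nor did Aqp4 at 1.57 (0.167) and Aldh1l1 at 1.21 (0.228). For Aldoc the estimate changed sign to -0.31 (SE 0.63, adjusted p = 0.804). The median standard error of the 10 genes fell to 0.29, which was close to 0.27 over all genes, while their median log2 fold change was 1.88. These calls changed with the mouse that was left out, as did the calls over all genes. Each such fit also has fewer pairs than the full one, and the part of the smaller design in lost calls was not tested. With the block and without mouse 67, 0 of the 10 were called, and 0 of all genes were called higher. Without mouse 70 it was 0 of the 10 and 2 of all genes, without mouse 57 it was 8 and 425, and without mouse 58 it was 6 and 63. The median log2 fold change of the 10 genes was 1.71 to 2.11 over these fits. DESeq2 with the block called 8 of the 10 higher, Slc1a2 and Aqp4 being added, against 7.19% of all genes. On simulated data, 20.6 to 33% of the calls of DESeq2 with the block were false, against 3.33 to 7.59% with edgeR and the block. The simulated libraries held no differences between mice, unlike the real ones, so these rates need not hold here. Calls made by DESeq2 alone, here and below, are still read with more caution.

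**Figure D3:**
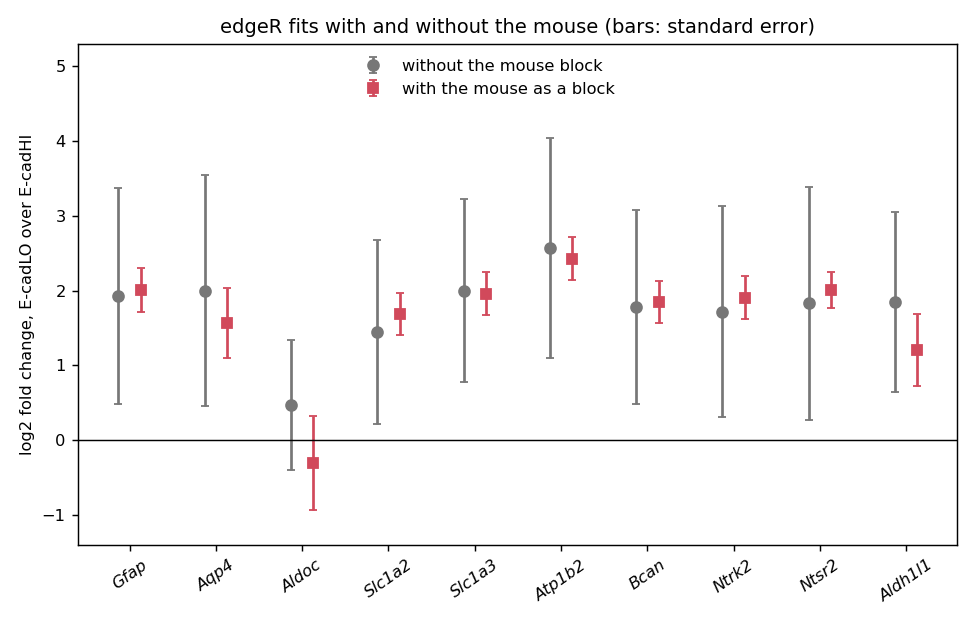
Log2 fold change (E-cadLO over E-cadHI) with its standard error for the 10 genes in edgeR fits without the mouse (grey circles) and with the mouse as a block (red squares). Estimates of 9 genes stay between 1 and 3 in both, while the median standard error goes from 1.35 to 0.29.

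Of the 10 genes, Aldoc varied least with the others. Over the 8 libraries, the Pearson correlation of its log2 CPM with the mean of the other 9 was 0.646, against 0.882 for Aldh1l1 and 0.963 to 0.983 for the remaining 8 genes. These are descriptions over 8 libraries that share 4 mice. Where the other 9 genes summed to only 16.9 CPM, in the E-cadHI cells of mouse 57, Aldoc was at 1005 CPM, close to its 1026 CPM in mouse 67. In the E-cadLO cells of mouse 57, the 9 genes summed to 83.6 CPM and Aldoc was at 124 CPM. Aldoa, the aldolase of most tissues and the closest relative of Aldoc, was at 2639, 1970, 2847 and 2581 CPM in E-cadHI cells. It was at 911, 2249, 2899 and 2311 CPM in E-cadLO cells, so that it too was lowest in E-cadLO cells of mouse 57. How reads that match both genes were counted is not given in the sources used here. In the E-cadLO library of mouse 57 fibroblast genes were also high, with 1137 CPM over the 6 genes of the list against 4.68 to 31.5 CPM in the other 7 libraries, and the 10 epithelial genes were lowest, at 5763 CPM. Their part in the Aldoc value was not tested.

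**Figure D4:**
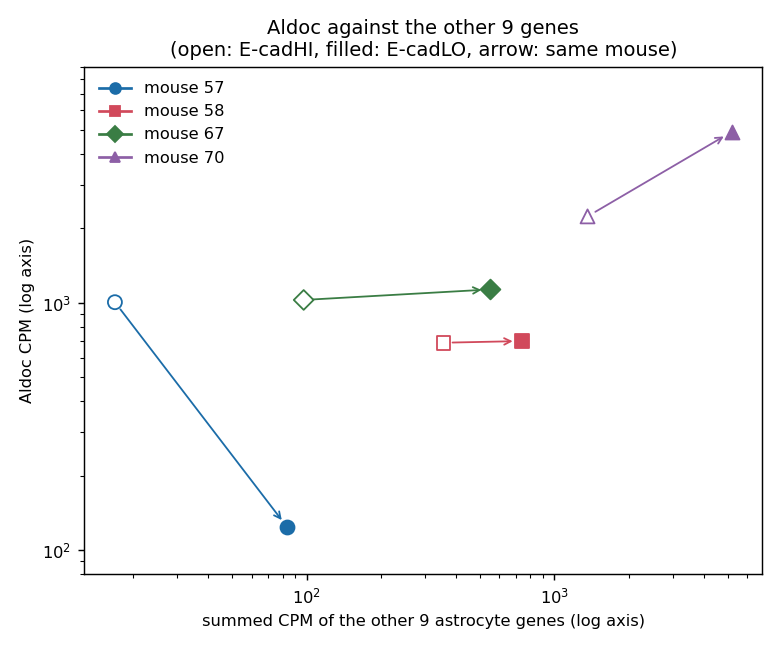
Aldoc CPM against the summed CPM of the other 9 astrocyte genes (log axes), open symbols for E-cadHI and filled for E-cadLO, with an arrow from E-cadHI to E-cadLO within each mouse. The sum of the 9 genes is higher in E-cadLO cells of every mouse, and Aldoc goes from 1005 to 124 CPM in mouse 57 and from 2233 to 4903 CPM in mouse 70.

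Another 24 genes known from astrocytes were read from the same fits. None was called by edgeR without the mouse, and 1 was higher at an unadjusted p under 0.05, against 8.16% of all genes. Their median log2 fold change was 1.59, with 22 of 24 above 0. With the block, 2 of 24 were called higher, against 0.728% of all genes, namely Acsbg1, an enzyme that activates long-chain fatty acids (log2 2.10, adjusted p = 0.0311), and S100b, a calcium-binding protein (1.84, adjusted p = 0.0479). At an unadjusted p under 0.05, 18 of the 24 were higher, against 12.3% of all genes. DESeq2 with the block called 14, against 7.19% of all genes. In 4 of 4 mice 13 of the 24 were higher, against 16.8% of all genes. The most abundant genes of the list went different ways: Gja1, the gap junction protein connexin 43, had a log2 fold change of 1.59, Clu (clusterin) of -0.61 and Mfge8 (lactadherin) of -0.27, none of which passed (edgeR without the block, adjusted p = 0.296, 0.475 and 0.636). Gja1 was higher in 4 of 4 mice and passed with DESeq2 without and with the block (adjusted p = 0.0357 and 0.00182), but not with edgeR and the block (adjusted p = 0.141). Clu and Mfge8 were also abundant in E-cadHI cells of mouse 57, at 1244 and 423 CPM, where Gfap was at 2.09 CPM.

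Mouse 57 differed from the other mice in these genes. There 9 of the 24 log2 ratios were below 0, with a median of 0.41, against medians of 0.95, 1.51 and 1.71 in mice 58, 67 and 70. By the 95% interval for counting error, 11 of the 24 were higher and 7 lower in E-cadLO cells of mouse 57. In mouse 58, 21 were higher and 0 lower, in mouse 67 it was 18 and 4, and in mouse 70 it was 22 and 2. Named after their values were seen, the lower ones in mouse 57 included Glul, the glutamine synthetase of astrocytes (340 counts in E-cadHI and 207 in E-cadLO cells), and Kcnj10, their potassium channel (25 and 7 counts). Among the higher ones were Gja1 (1818 and 7213 counts) and Slc4a4, a bicarbonate transporter (11 and 55 counts). Kcnj10 and Slc4a4 rest on few reads in this mouse.

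**Figure D5:**
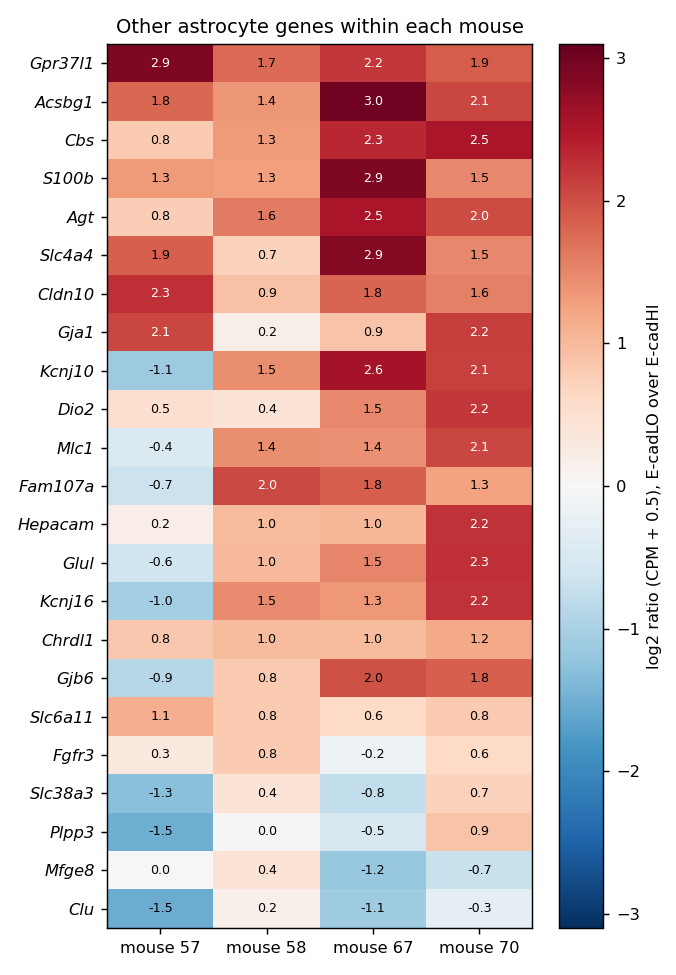
Log2 ratio of CPM plus 0.5, E-cadLO over E-cadHI, of 23 of the 24 other astrocyte genes (rows, ordered by mean) in the 4 mice (columns), red for higher and blue for lower in E-cadLO cells. All 23 genes drawn are above 0 in mouse 58, and 9 are below 0 in mouse 57.

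Genes that astrocytes raise on injury went both ways. Of 12 such genes 0 were called in either edgeR fit, with a median log2 fold change of 0.53 without and 0.25 with the block. At an unadjusted p under 0.05, 1 was higher without and 3 with the block, against 8.16% and 12.3% of all genes. DESeq2 with the block called 1, against 7.19% of all genes. Lcn2, an iron-carrier protein, had 2637 ± 305 CPM in E-cadHI and 1739 ± 1424 CPM in E-cadLO cells (SD, n = 4), with a log2 fold change of -0.60. Cp (ceruloplasmin) was at -0.36 and Cd44, the hyaluronan receptor, at 0.19, and none of these passed. Lcn2, Cp and Cd44 were also abundant in E-cadHI cells of mouse 57, at 2849, 834 and 134 CPM, where Gfap was at 2.09 CPM. Named after their values were seen, Cxcl10, an interferon-induced chemokine, was at 3.39 without and 3.80 with the block (adjusted p = 0.251 and 0.0547, edgeR) and higher in 4 of 4 mice, and Serpina3n, a protease inhibitor, was at 1.70 and 2.32 (adjusted p = 0.538 and 0.186) and higher in 3 of 4. Hspb1, a small heat shock protein, was at 0.88 without the block (adjusted p = 0.367) and higher in 4 of 4 mice. The difference between this list and the 10 genes was not tested.

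Among 11 transcription factors of the astrocyte lineage, 0 were called in either edgeR fit, with medians of 0.53 and 0.58. At an unadjusted p under 0.05, 1 was higher without and 4 with the block, against 8.16% and 12.3% of all genes. DESeq2 with the block called 2, against 7.19% of all genes. In both fits 8 of the 11 had a log2 fold change above 0. The most abundant were Nfib, Stat3 and Nfia, with log2 fold changes of -0.31, -0.30 and -0.05 without the block. Stat3 was lower in E-cadLO cells of 4 of 4 mice without passing the test (adjusted p = 0.441, edgeR), and the sign of Nfia turned when single libraries were left out. The less abundant factors, named after their values were seen, lay on the other side. Id3, an inhibitor of DNA binding, was at 2.05 without and 2.17 with the block (adjusted p = 0.255 and 0.0644, edgeR), and Rorb, a nuclear receptor, at 1.49 and 2.06 (adjusted p = 0.545 and 0.176), both higher in 4 of 4 mice. In mouse 57, Nfib, Stat3 and Nfia were at 395, 511 and 38.0 CPM in E-cadHI cells and at 652, 341 and 39.4 CPM in E-cadLO cells. The 10 genes but Aldoc reached at most 4.88 and 23.9 CPM there. These levels were not set per kb of exon.

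Of 22 close relatives of the 10 genes, 12 were tested, and 0 were called in either edgeR fit. With the block, 2 were higher at an unadjusted p under 0.05, against 12.3% of all genes, and 2 were lower. DESeq2 with the block called 2 in each direction, against 7.19% of all genes higher and 1.51% lower. Their median log2 fold change was 0.04, and 6 of the 12 were above 0. Aqp5, the water channel of glands, was lower in E-cadLO cells of 4 of 4 mice (log2 -0.85, adjusted p = 0.298, edgeR without the block). It did not pass with edgeR and the block (adjusted p = 0.151) but passed with DESeq2 and the block (log2 -0.90, adjusted p = 0.0152). Slc1a1, the glutamate transporter of neurons and epithelia, named after its values were seen, was also lower in 4 of 4 mice (-1.08, adjusted p = 0.269, edgeR without the block). Atp1b3 was at -0.20 and Aldoa at -0.26. Chosen after its values were seen, Ncan (neurocan), a brain proteoglycan related to Bcan, was at 1.94 and higher in 4 of 4 mice (adjusted p = 0.496, and 0.069 with the block).

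Binding partners and ligands of the 10 genes were read likewise. Tested were 9 of 14, of which 0 were called in either edgeR fit, with a median of 1.29 without and 0.033 with the block. At an unadjusted p under 0.05, 3 were higher with the block and 0 without, against 12.3% and 8.16% of all genes. DESeq2 with the block called 2 of the 9, against 7.19% of all genes. Dag1, the dystroglycan that anchors Aqp4 at endfeet, was at 0.039 without and at -0.079 with the block.

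Genes whose log2 CPM ran most closely with the mean of the 10 over the 8 libraries were Nap1l5, Ndrg2, Sparcl1, Adcy2, Mt3, Pllp, Tmem229a, Timp4, Dnaic1 and Tmem191c, with Pearson correlations from 0.991 to 0.995. The libraries share 4 mice, so this is a description of their common order. Ndrg2 was at 7.95, 136, 30.0 and 763 CPM in E-cadHI cells and at 27.0, 362, 213 and 2788 CPM in E-cadLO cells. Sparcl1 (hevin), a matrix protein that astrocytes secrete, was at 8.57, 150, 44.2 and 796 CPM and at 34.0, 341, 252 and 3894 CPM, respectively. Since these genes were picked for their likeness to genes that are higher in E-cadLO cells, no test between the populations is given for them.

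Most markers of oligodendrocytes, microglia and neurons moved with the astrocyte genes. Summed over 10 oligodendrocyte genes, CPM were 563, 1664, 977 and 8651 in E-cadHI cells and 1324, 3814, 4345 and 34686 in E-cadLO cells, again highest in mouse 70 and higher in E-cadLO cells of each mouse. Over 14 microglia genes the range was 32.8 to 279 CPM in E-cadHI and 165 to 1014 CPM in E-cadLO cells, and over 11 neuron genes 4.60 to 100 CPM and 32.2 to 399 CPM. With the block, edgeR called 3 of 14 tested microglia genes, 2 of 10 oligodendrocyte genes and 1 of 10 neuron genes higher, against 0.728% of all genes. In 4 of 4 mice 13 of the 14 microglia, 5 of the 10 oligodendrocyte and 6 of the 10 neuron genes were higher, against 16.8% of all genes. In the fit with the block, 14 of 14 microglia, 9 of 10 oligodendrocyte and 10 of 10 neuron genes had log2 fold changes above 0. Mbp, the myelin basic protein, was at 2.14 and Snap25, a synaptic protein, at 2.32, the size of the changes of the astrocyte genes. Cnp, another abundant oligodendrocyte gene, went the other way at -0.47 (adjusted p = 0.576, edgeR) and was higher in 1 of 4 mice. Ugt8a of that list was at 0.087. At 0 in at least 1 library were 5 of the 11 neuron genes, 2 of the 14 microglia genes and none of the oligodendrocyte genes.

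Precursors of oligodendrocytes (7 genes in the table) summed to 55.5 to 113 CPM in E-cadHI and 40.2 to 135 CPM in E-cadLO cells, endothelial genes (9 genes) to 42.3 to 77.7 CPM and 62.4 to 110 CPM, and ependymal genes (4 genes) to 0.446 to 3.25 CPM and 0.875 to 8.84 CPM. With the block, edgeR called 0 genes of these lists and 0 of 4 tested fibroblast genes. At an unadjusted p under 0.05 with the block, 4 of 7 tested precursor genes were higher, against 12.3% of all genes. So were 1 of 8 endothelial, 1 of 1 ependymal and 1 of 4 fibroblast genes. DESeq2 with the block called 2, 1, 0 and 1 higher in these lists, against 7.19% of all genes. At an unadjusted p under 0.05 with edgeR and the block, 1 precursor gene was lower. It was Sox10, the most abundant of its list (log2 -0.57, adjusted p = 0.202, lower in 4 of 4 mice). The labelled cell type was present throughout, as 10 epithelial genes such as Epcam, Krt8 and Krt18 summed to 7719 to 10437 CPM in E-cadHI and 5763 to 14599 CPM in E-cadLO cells. Their median log2 fold change was -0.17 without the block, with 3 of 10 above 0. Ratios above 0 were 0, 8, 6 and 2 of the 10 in mice 57, 58, 67 and 70. With edgeR and the block, 0 were called, and 1 was lower at an unadjusted p under 0.05. It was Epcam (log2 -0.89, adjusted p = 0.225), the 1 gene of the 10 lower in 4 of 4 mice, against 14.2% of all genes. Cdh1 itself, which encodes E-cadherin and belongs to this list, was at 114, 132, 93.5 and 108 CPM in E-cadHI cells and at 71.6, 181, 84.5 and 59.2 CPM in E-cadLO cells. Its groups overlapped, it was higher in E-cadLO cells of mouse 58 and lower in those of the other mice, and the difference did not pass (log2 -0.17, adjusted p = 0.809, edgeR). The names E-cadHI and E-cadLO thus stand for the sort by reporter signal. The part that brain cells or their RNA in the sorted fractions had in the astrocyte values was not tested.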

How the data were processed

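The 8 bulk mRNA libraries hold E-cadHI and E-cadLO cells sorted from BCBM of 4 mice. Per the paper's methods and the submitters' processing notes, single reads were mapped with HISAT2 2.1.0 to the mouse genome GRCm38. The authors deposited whole-number counts per gene, without normalization. The methods name Icount and the notes HTSeq as the counting tool, and the strand setting and the treatment of reads that match several genes are not given in the sources used here. Without strand, reads of a gene and its antisense partner cannot be told apart. Antisense genes share 189 exon bases with Slc1a2 and 499 with Aldh1l1, and those genes had at most 6 counts and 1 count in a library. The 365 table entries without a gene identifier (0.0636 to 0.0954% of the counts) were left out.

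Counts were tested with edgeR 4.0.16 in R 4.3.3, with TMM scaling, filterByExpr by group, the quasi-likelihood test and Benjamini-Hochberg adjustment over 13598 genes at a threshold of 0.05. Standard errors of the edgeR fits were worked out from the test, as the absolute log2 fold change divided by the square root of its F statistic. The main model held no mouse. The study's methods name DESeq2 and give no model formula. With 4 libraries a group, p-values measure the spread between these libraries. The populations of a mouse come from the same animal, so a fit that takes the mouse as its replicate block was made as well. Deviations from the group means correlated within mice at 0.275 to 0.698 over the 13598 genes, and between mice at no more than 0.153. Ratios within a mouse used CPM plus 0.5, and their 95% intervals (exact binomial) cover counting error only. The depth set a floor of 3 counts, or 0.190 to 0.330 CPM. Exon lengths and overlaps came from GENCODE M21, and promoter windows from RefSeq. Shares of variation are sums of squares of log2 CPM plus 0.5.

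The genes and lists were written by hand and were chosen with earlier results of these data known. Named were the 10 genes, the 3 most abundant genes of each other list, and the 10 genes most like the mean of the 10. Genes of the lists named beyond these, such as those called with the block, were chosen after their values were seen. Lhfpl3, of the precursor list, was not analysed here, and a few genes that count in the lists are not reported here by name. Alternatives were DESeq2 1.42.0 with and without the block, DESeq2's size factors, no filter, at least 10 counts in every library, a robust fit, other pseudocounts, and leaving out mice or libraries. The steps were tested on simulated data with known changes between the populations and no differences between mice. Python 3.11 (pandas 2.3, scipy 1.17, matplotlib 3.10) was used for the tables and plots.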

Additional observations from a re-analysis of the deposited data

Results flagged for a closer look

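In groups of 4 libraries, 8 values of 34 groups tested stood far from the rest by Dixon's criterion. That criterion takes values as normally distributed, and levels entered it as CPM without a log, on which the mice differed manyfold. The 1.7 flags that a rate of 1 in 20 would give therefore need not hold here, and no excess is read from them. None of the log2 ratios within mice was flagged. All 8 belonged to mouse 70. In its E-cadLO library these were Gfap at 1333 CPM, Aqp4 at 272 CPM, Slc1a3 at 735 CPM, Atp1b2 at 524 CPM, Ntrk2 at 460 CPM and Ntsr2 at 796 CPM, as well as the sum of the 9 genes without Aldoc at 5184 CPM. In its E-cadHI library it was Ntsr2 at 227 CPM. The genes share their libraries, so these values are not independent of each other. Oligodendrocyte and microglia genes were also highest in mouse 70, with 34686 and 1014 CPM in its E-cadLO library, and their part was not tested.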

How the results depend on the processing

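All results rest on 4 mice with 1 library of each population each. Without E-cadLO of mouse 70, and with its E-cadHI library kept, the median log2 fold change of the 10 genes was 0.10, and Aqp4 (-0.25), Slc1a2 (-0.023), Ntrk2 (-0.39) and Ntsr2 (-0.74) turned negative. Over left-out libraries these 4 reached up to 3.59, 2.74, 3.59 and 4.53, in that order. Without E-cadHI of mouse 70 the median was 3.28, so that the range over left-out libraries was 0.10 to 3.28, while with the block and single mice left out it was 1.71 to 2.11. Calls of the 10 genes were 6 with the replicate block and 8 with DESeq2 and the block, and 0 to 8 with the block and single mice left out. In the fits without the block, all of which called 0 of the 10, the setting with at least 10 counts in every library tested only 7 of them.

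Over all genes, calls of higher genes were 23 with no filter, 3 with at least 10 counts in every library, 99 with the block, 386 with DESeq2 and 1031 with DESeq2 and the block. They ranged from 0 to 13 with libraries or mice left out and from 0 to 425 with the block and mice left out (63 without mouse 58). Calls of lower genes were 43 with DESeq2, 216 with DESeq2 and the block, and 0 to 24 with the block and mice left out. Of the genes of the other astrocyte, reactive, transcription factor, family and partner lists together, 2 were called higher with the block, 5 with DESeq2, 21 with DESeq2 and the block and 0 to 20 with the block and mice left out, and 1 and 2, all of them family members of the 10 genes, were called lower with DESeq2 without and with the block.

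Aldoc turned negative with the replicate block (-0.31) and with DESeq2 and the block (-0.30). Over left-out libraries it ranged from -0.92 to 0.90, and over left-out mice with the block from -0.86 to 0.41 (-0.45 without mouse 58, -0.51 without mouse 67). Dag1 was at -0.079 with the block and at -0.062 with DESeq2 and the block, and ranged from -0.44 to 0.27 and from -0.24 to 0.18 (-0.19 without mouse 57, -0.049 without mouse 70). Nfia ranged from -0.57 to 0.15 and from -0.32 to 0.021 (0.0067 without mouse 58), and Cd44 from 0.013 to 0.43 and from -0.070 to 0.43. The cause of these turns was not tested. DESeq2's size factors and the robust fit turned none of the astrocyte genes picked at the start. Nor did they turn the most abundant genes named from the other astrocyte, reactive, transcription factor, family and partner lists. The other named genes were not followed over these settings.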
